A study of Mus musculus with 12 samples.

Results

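The 200 most abundant transcripts of mouse skin are described here, chosen by their mean relative abundance over 12 RNA sequencing libraries. Abundance is given in TPM, a unit that divides reads by transcript length and scales every library to a total of 1000000. The selected transcripts are 200 of 85565 listed, and all 200 entered the tests below, which covered the 54539 transcripts whose reads came to 10 or more in all. The threshold fell between MGP_FVBNJ_T0032096.1 at rank 200, with a mean of 741 TPM, and MGP_FVBNJ_T0025791.1, the first transcript left out, with 732 TPM. Because the members were selected on TPM, their high level is not a result, and only their differences between libraries and groups are compared. A member whose mean in 1 group lies under 741 TPM is on the list through the other groups. Its difference from them is in part fixed by the choice. The number of such members stands beside the main edgeR counts of calls and the counts of members whose groups did not overlap. It is not given for counts by DESeq2 or limma, for refits or for unadjusted p values, and the same limit holds there.

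The libraries come from whole skin of mice of the FVB background (FVB/N in the methods for Tcrb-/-) and form 4 groups of 3. UT WT mice were untreated. WT DMBA mice received the carcinogen DMBA on the skin every week for 6 weeks (200 ng in the deposited design, whereas the methods state doses in nM). Tcrb-/- mice lack the beta chain of the T cell receptor and therefore alpha-beta T cells, while gamma-delta T cells remain, and they received the same DMBA course. Tcrb-/- + Treg mice were Tcrb-/- recipients given CD3+CD4+CD25+ cells, a gate for regulatory T cells, from the spleen of WT donors by the intravenous route before that course; elsewhere the study describes the transferred cells as CD25hi and from spleen and lymph nodes. Mice for carcinogenesis were age-matched females of 7 weeks of age whose backs had been shaved. The libraries of WT DMBA carry a naive entry in the treatment field but are titled for DMBA, and they were grouped by title. Whether the libraries stand for different mice is not stated in the sources used here, and every p value therefore measures only the spread between libraries, which may be technical.

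A small number of very abundant messages is a usual feature of skin. Keratinocytes make keratins and the proteins of the cornified layer in bulk, hair follicles make hair keratins and their associated proteins, fibroblasts make collagen, and every cell makes messages for ribosomal proteins and respiration. A message at the top of such a list takes part of a fixed total, so when one rises the shares of the others fall. The files list FVB/NJ transcript identifiers and do not pair them with genes. The members are therefore described by identifier, rank and length, the tissue could not be checked against defining markers, and no group of genes is named.

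Libraries held 17312566 to 31701620 estimated reads. Over members and libraries the median was 13697 reads, at which counting error alone is 0.854% of the value, and 182 of the 200 had at least 1000 reads in every library. With each transcript reduced to its median library, the median was 13010 reads over members and 15.8 over all tested transcripts. For 197 members the estimate was fractional in 1 or more libraries, which means that reads were divided between similar transcripts, and only ranks 2, 4 and 148 had whole numbers throughout. The part of this division in the values below was not tested.

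The members were short. Their median length was 723 nt (132 to 3149 nt), against 1109 nt over all listed transcripts and 1712 nt over those tested. Of the 200, 50 were shorter than 500 nt, 91 were at least 500 but under 1000 nt, 47 were at least 1000 but under 2000 nt and 12 were 2000 nt or longer. Transcripts of 2000 nt or more made up 6% of the members but 34.6% of all listed transcripts. On average the 50 shortest carried 10.5% of the TPM and 1.66% of the reads of a library, whereas the 12 longest carried 3.91% of the TPM and 5.99% of the reads. TPM divides by length, so a choice by TPM ranks short transcripts higher than a choice by reads does. Of the 200 transcripts with the highest mean share of reads, 123 (61.5%) are among these members. Why the members are short was not tested.

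Skin of the 4 groups gave the members 36.1% to 45.4% of all TPM. The share was 38.3%, 36.6% and 36.1% in UT WT replicates 1 to 3, 37.0% ± 1.15 on average (SD, n = 3). It was 36.1%, 41.0% and 38.5% in WT DMBA (38.5% ± 2.42, SD, n = 3). In Tcrb-/- it was 40.9%, 41.5% and 41.2% (41.2% ± 0.312, SD, n = 3), the narrowest spread of any group. In Tcrb-/- + Treg it was 42.4%, 39.5% and 45.4% (42.4% ± 2.92, SD, n = 3), so that this group held the highest library and 1 library below every Tcrb-/- library. In whole tissue, fewer cells of a type and less RNA per cell cannot be told apart.

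In the 4 comparisons made, the shares did not differ beyond the spread of the libraries. All UT WT shares lay below all those of Tcrb-/- and Tcrb-/- + Treg, and these pairs of groups were not tested. WT DMBA exceeded UT WT by 1.48 percentage points (exact two-sided permutation p = 0.5, Benjamini-Hochberg adjusted p = 0.667 over the 4 comparisons). Tcrb-/- exceeded WT DMBA by 2.69 points (exact permutation p = 0.2, adjusted 0.4). Tcrb-/- + Treg exceeded Tcrb-/- by 1.24 points (exact permutation p = 0.7, adjusted 0.7) and WT DMBA by 3.93 points (exact permutation p = 0.2, adjusted 0.4). With members chosen only in the groups not compared, so that the compared libraries took no part in the choice, the differences were 2.02, 2.66, 0.386 and 3.40 points in the same order. The groups overlapped in all 4 comparisons, and 3 against 3 libraries cannot give a p below 0.1. The last group decided the sign of its comparison with Tcrb-/-: without replicate 3 the difference was -0.228 points, and without replicate 2 it was 2.70 points (exact permutation p = 0.1, the smallest possible). Leaving out replicate 2 of WT DMBA took the difference from UT WT down to 0.257 points (exact permutation p = 0.8).

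**Figure D1:**
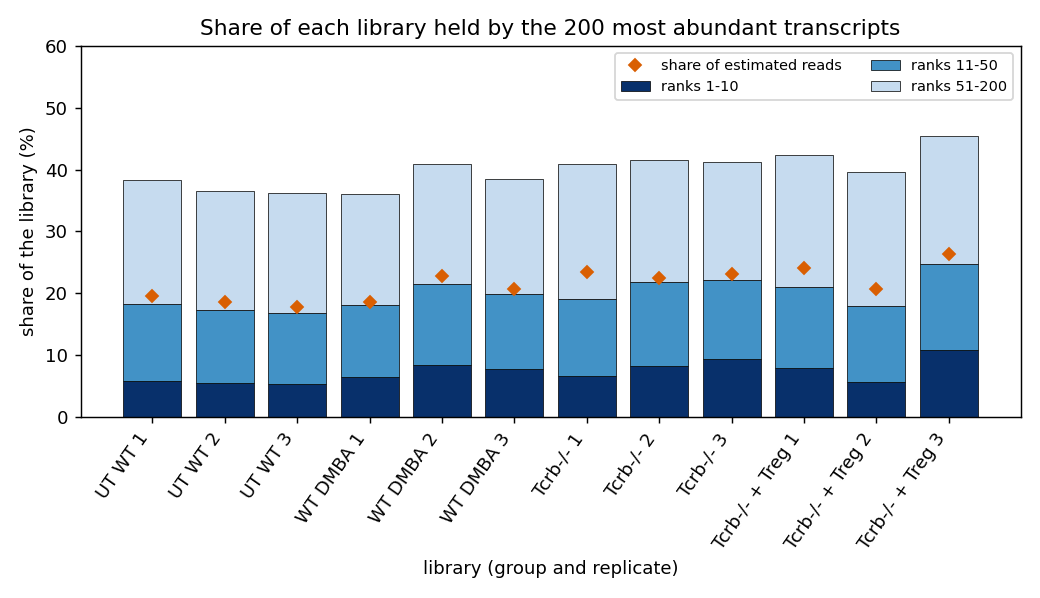
Share of all TPM (bars, %) held by the 200 members in each of the 12 libraries, split into abundance ranks 1 to 10, 11 to 50 and 51 to 200, with the share of estimated reads held by the same members as diamonds. The bars reach 36.1% to 45.4% and the diamonds 17.8% to 26.4%, with the lowest bar in WT DMBA replicate 1 and the highest in Tcrb-/- + Treg replicate 3.

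The top of the list moved most. The 10 most abundant members took 5.26% to 5.81% of TPM in UT WT and 5.73% to 10.8% in Tcrb-/- + Treg. In WT DMBA they took 6.50% to 8.48%, above all UT WT libraries. Of these 10, 6 were among the 10 most abundant transcripts of UT WT by group mean. In WT DMBA, Tcrb-/- and Tcrb-/- + Treg the numbers were 9, 8 and 9. The low share in UT WT is therefore in part built into the choice, and nothing is read from it. Ranks 11 to 50 stayed between 11.6% and 13.9% in all 12 libraries, and ranks 51 to 200 between 18.0% and 21.8%. Counted in reads rather than TPM, the members held 17.8% to 26.4% of a library.

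The most abundant transcript of all was MGP_FVBNJ_T0032032.1, 2103 nt long, with a mean of 14687 TPM. Its level was 9762, 9789 and 8360 TPM in UT WT, 13488, 20818 and 17896 in WT DMBA, 9140, 19312 and 24034 in Tcrb-/-, and 15503, 4914 and 23224 in Tcrb-/- + Treg. UT WT and WT DMBA did not overlap, but the lowest library of all was a treated one, Tcrb-/- + Treg replicate 2. The log2 fold change of WT DMBA against UT WT was 0.99 (SE 0.48, edgeR adjusted p = 0.467), and none of the other comparisons passed either.

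Ranks 2, 3 and 4 were steadier. MGP_FVBNJ_T0012628.1 (663 nt) lay between 8196 and 10497 TPM in all 12 libraries and was the most abundant transcript of UT WT, at 9346 ± 83.6 TPM (SD, n = 3). MGP_FVBNJ_T0092281.1 (495 nt) had 6381 ± 174 TPM in UT WT, 7396 ± 262 in WT DMBA, 7421 ± 367 in Tcrb-/- and 8132 ± 144 in Tcrb-/- + Treg (SD, n = 3 each). Every Tcrb-/- + Treg library lay above all 9 others, yet the difference from WT DMBA was a log2 fold change of 0.37 (SE 0.13, edgeR adjusted p = 0.191). MGP_FVBNJ_T0012492.1, only 160 nt long, rested on 3485 to 6339 reads for its 5834 to 8863 TPM, because a short transcript needs few reads for a high TPM. At rank 5, MGP_FVBNJ_T0061809.1 (1674 nt) had 4894, 4661 and 3967 TPM in UT WT and 6085, 9937 and 8611 in WT DMBA. Its lowest library was again Tcrb-/- + Treg replicate 2, at 2840 TPM, beside 6561 and 10400 in the other replicates of that group.

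Over all 12 libraries, 130 of the 200 members kept their highest TPM below 2 times their lowest, and 99 kept it below 1.5 times. The median ratio of highest to lowest was 1.51. Another 39 ranged from 2-fold to 4-fold and 31 over 4-fold or more, 9 of them over 100-fold. The transcripts next in abundance are given only for scale. For the next 200 the median ratio was 1.87 and 55% stayed under 2-fold, and for the 600 after these the values were 1.71 and 62.2%, against 65% of members. These sets were not tested against each other. The steadiest members were ranks 50 and 49, at 2195 to 2521 TPM and 2262 to 2600 TPM.

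Steadiness differed between the classes of length. Of the 91 transcripts from 500 to under 1000 nt, 71 stayed under 2-fold, and their median ratio of highest to lowest was 1.36. Of the 50 shorter ones 32 did, with a median ratio of 1.59. Of the 47 transcripts from 1000 to under 2000 nt 22 did, with a median ratio of 2.12, and of the 12 longest 5 did, with a median ratio of 3.15. These are descriptions of members that share libraries.

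**Figure D2:**
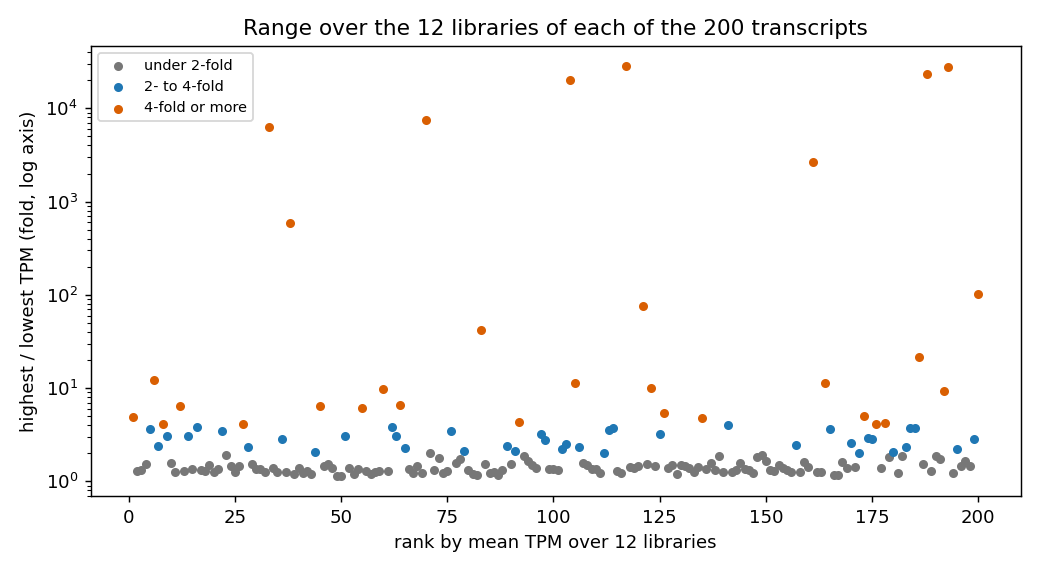
Highest divided by lowest TPM over the 12 libraries (log axis) for each member, against its rank by mean TPM. Of the 200 points, 130 lie under 2-fold and 31 at 4-fold or more, and wide ranges occur both at the top of the list and near its end.

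The 130 steady members held 23.3% to 27.0% of TPM. The 39 of intermediate range held 5.44% to 9.16%. The 31 wide members held 4.61% to 4.90% in UT WT, 5.01% to 7.98% in WT DMBA, 7.95% to 9.26% in Tcrb-/- and 7.09% to 10.2% in Tcrb-/- + Treg. Their group means were 4.78%, 6.43%, 8.73% and 8.69%, in that order. The wide members were picked by their range in the same libraries, so these shares describe them and were not tested.

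On TPM, replicates lay close together for most members in the WT groups, and less often so in the Tcrb-/- groups. The median coefficient of variation (SD divided by mean over 3 libraries) was 5.16% in UT WT, 6.15% in WT DMBA, 10.2% in Tcrb-/- and 8.38% in Tcrb-/- + Treg. It was under 10% for 158, 143, 97 and 110 members in these groups. A coefficient of 50% or more was seen for 7 members in UT WT, 12 in WT DMBA, 12 in Tcrb-/- and 29 in Tcrb-/- + Treg. Those 29 depended on 1 library: without replicate 2 of Tcrb-/- + Treg, a setting chosen after seeing the data, 9 members reached 50%. The order of the groups also rests on single libraries and on the scaling. Without replicate 1 of Tcrb-/- the median of that group was 7.64%, below that of Tcrb-/- + Treg, and without replicate 2 of WT DMBA the median there was 3.84%, below that of UT WT. On CPM, the reads scaled to a common library size by TMM normalization and not divided by length, the medians were 6.60%, 11.4%, 18.5% and 8.21% in UT WT, WT DMBA, Tcrb-/- and Tcrb-/- + Treg. For the next 200 transcripts the medians of TPM were 7.25%, 7.56%, 13.8% and 14.5% in the same order of groups.

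Tcrb-/- + Treg replicate 2 stood apart among the members. It held the highest value of the 12 libraries for 65 members and the lowest for 26, together 91, where an even spread over libraries would give 33.3 each. UT WT replicate 1 came next with 48. The library at the other end was WT DMBA replicate 2, with 7. Only 174 of the members were among the 200 most abundant of Tcrb-/- + Treg replicate 2 itself, the lowest number of any library, against up to 186 elsewhere.

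Most members stayed in the top 200. In all 12 libraries, 146 of the 200 were within that library's own top 200, and 17 were so in 6 libraries or fewer. Ranked by group mean, 179 members (89.5%) were in the top 200 of UT WT, 185 (92.5%) of WT DMBA, 189 (94.5%) of Tcrb-/- and 186 (93%) of Tcrb-/- + Treg. From UT WT to WT DMBA the median member moved by 11 ranks, from WT DMBA to Tcrb-/- by 12, from Tcrb-/- to Tcrb-/- + Treg by 8 and from WT DMBA to Tcrb-/- + Treg by 11.

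The shifts were set beside those between replicates. Between single libraries of the same group, the median shift of a member was 4.5 to 6 ranks in UT WT, 6 to 9 in WT DMBA, 9 to 14 in Tcrb-/- and 9 to 19.5 in Tcrb-/- + Treg. Measured the same way between groups, over 9 pairs of libraries each, it was 11 to 14 from UT WT to WT DMBA, which lies above all 6 replicate pairs of those groups. It was 7 to 18 from WT DMBA to Tcrb-/- and 6.5 to 19.5 from Tcrb-/- to Tcrb-/- + Treg, both overlapping the replicate pairs. From WT DMBA to Tcrb-/- + Treg it was 10 to 25, above the replicate pairs of WT DMBA and overlapping those of Tcrb-/- + Treg. Pairs of libraries share libraries, so no test was made.

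Large moves concerned few members. Between UT WT and WT DMBA, 16 members climbed more than 100 ranks and 0 dropped as far. Members that are low in 1 group could enter the list only through the others, so this direction is in part set by the choice of members. Between Tcrb-/- and Tcrb-/- + Treg, 6 dropped more than 100 ranks and 0 climbed as far. From WT DMBA to Tcrb-/- 9 climbed and 2 dropped by more than 100 ranks, and from WT DMBA to Tcrb-/- + Treg 8 climbed and 8 dropped. In UT WT 11 members ranked beyond 1000, in WT DMBA 6, and in the other groups 0, where the lowest ranks were 283 and 664.

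**Figure D3:**
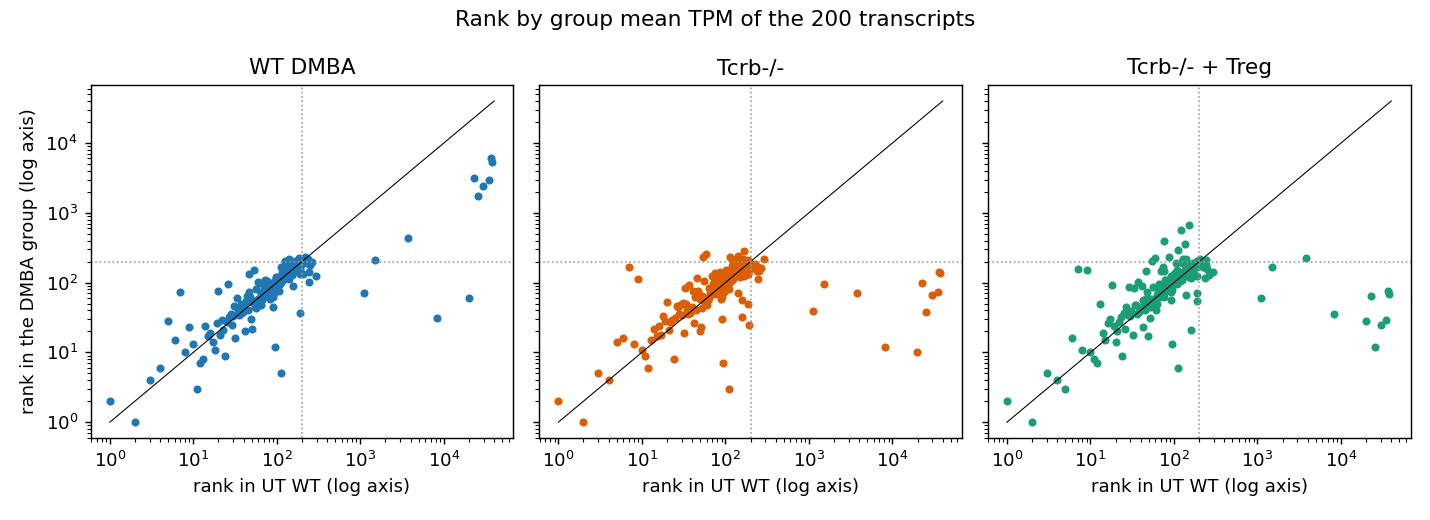
Rank by group mean TPM (log axes, 1 is the most abundant) in UT WT against the rank in WT DMBA, Tcrb-/- and Tcrb-/- + Treg, with 1 point per member, the line of equal rank and dotted lines at rank 200. Most points follow the line, and 11 members lie beyond rank 1000 in UT WT.

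The first and second places were taken by the same transcripts in all groups, with MGP_FVBNJ_T0012628.1 leading in UT WT and MGP_FVBNJ_T0032032.1 in the treated groups. Rank 6 of the list, a transcript of 2445 nt, stood at place 111 in UT WT but at places 5, 3 and 6 in WT DMBA, Tcrb-/- and Tcrb-/- + Treg. Rank 60, a transcript of 1700 nt, moved the other way, from place 7 in UT WT to 73, 168 and 157. Both were picked for their moves after the values were seen.

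Carcinogen treatment of WT skin, the comparison that asks what DMBA does in the presence of all T cells, raised 2 members and lowered 0 by edgeR under the stricter call rule (adjusted p below 0.01, change above 2-fold). These are 1% and 0% of the members, where 0.161% of all tested transcripts rose and 0.0697% fell. Both lay under 741 TPM in UT WT, so they are members through the treated groups and their rise is in part built into the choice: nothing is read from the count, and their values are a description. DESeq2 called 14 members higher and 3 lower under the same rule, against 860 and 369 of all tested transcripts (2.25% together). MGP_FVBNJ_T0043995.1 (388 nt, rank 33) had 5.22, 2.57 and 1.28 TPM in UT WT and 463, 3961 and 1741 in WT DMBA. In Tcrb-/- it reached 3357, 8119 and 5978 TPM, and in Tcrb-/- + Treg 4267, 484 and 5385. It was thus near 0 in untreated skin, with as few as 4 reads in a library, and spread widely between the DMBA libraries. Its log2 fold change was 9.50 (SE 1.27, edgeR adjusted p = 0.00808). MGP_FVBNJ_T0043998.1 (412 nt, rank 38) went from 21.8, 11.6 and 15.0 TPM to 885, 5313 and 1911, a log2 fold change of 7.49 (SE 1.06, edgeR adjusted p = 0.0096). The TPM of both followed the same course, with a Pearson r of 0.99 over the 12 libraries on the log2 scale.

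Both calls were narrow. Of 20 refits, 8 called MGP_FVBNJ_T0043995.1 and 7 called MGP_FVBNJ_T0043998.1, with adjusted p values up to 0.0474 and 0.0562, and log2 fold changes of 8.49 to 10.12 and 6.42 to 7.95. Leaving out any UT WT library, or WT DMBA replicate 2 or 3, took the number of members called to 0, and leaving out WT DMBA replicate 1 took it to 1. Libraries outside the comparison share in the estimate of spread. The number was 0 without Tcrb-/- replicate 2 or 3 or Tcrb-/- + Treg replicate 1. Without Tcrb-/- replicate 1 or Tcrb-/- + Treg replicate 3 it was 1 that was lower, with both rises lost. Without Tcrb-/- + Treg replicate 2 it was 3 (2 higher, 1 lower), against 102 and 44 of all tested transcripts.

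At an adjusted p under 0.05 with any fold, 6 members (3%) rose and 2 (1%) fell with DMBA in WT skin by edgeR, against 0.695% and 0.449% of all tested transcripts. Of the 6 that rose 5 lay under 741 TPM in UT WT, and of those that fell 0 did in WT DMBA. Those that fell were ranks 60 and 135. Rank 60 had 5380, 4002 and 5466 TPM in UT WT and 1756, 1820 and 1896 in WT DMBA, a log2 fold change of -1.37 (SE 0.23, edgeR adjusted p = 0.0205). Rank 135 (1880 nt) had 2563, 2239 and 2228 TPM in UT WT and 1052, 739 and 1049 in WT DMBA, a log2 fold change of -1.25 (SE 0.20, edgeR adjusted p = 0.0152). Every treated library lay below every UT WT library for both. The smallest change past this threshold was rank 14, from 4246 ± 74.1 to 6336 ± 517 TPM (SD, n = 3), a log2 fold change of 0.63 (SE 0.11, edgeR adjusted p = 0.0262). The total of 8 became 1 to 3 when any of the 6 libraries compared was left out, 14 without Tcrb-/- replicate 1 or Tcrb-/- + Treg replicate 2, and 5 without Tcrb-/- + Treg replicate 1.

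Small shifts were more common than calls. TPM of UT WT and WT DMBA did not overlap for 47 members that were higher and 70 that were lower with DMBA, 23.5% and 35% of members, against 9.24% and 9.72% of tested transcripts. The lower group lay under 741 TPM for 19 of the 47 and 4 of the 70. The members were measured with more reads than other transcripts (13010 against 15.8, above), and the part of this in the counts was not tested. The median log2 fold change was 0.01 over members and 0.01 over all tested transcripts.

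Loss of alpha-beta T cells under DMBA, Tcrb-/- against WT DMBA, called 0 members by edgeR in either direction, with 37 members (18.5%) at an unadjusted p under 0.05 against 6.70% of tested transcripts. Over all transcripts 0% rose and 0.00367% fell at the stricter rule, and 0.00367% rose and 0.0055% fell at an adjusted p under 0.05, where the members were again 0. DESeq2 called 9 members higher and 1 lower at the stricter rule, against 248 and 144 of all tested transcripts (0.719% together). Replicates could lie far apart in level. MGP_FVBNJ_T0032096.1, at rank 200, had 141, 422 and 310 TPM in WT DMBA and 1876, 2701 and 1339 in Tcrb-/-, a log2 fold change of 2.91 (SE 0.72, edgeR adjusted p = 0.375). Its mean was over 741 TPM in Tcrb-/- alone, so this rise is in part built into the choice and its values are a description. TPM did not overlap for 28 members that were higher and 21 that were lower in Tcrb-/- (14% and 10.5%), against 3.61% and 11.8% of tested transcripts, with the lower group under 741 TPM for 10 and 5 of them. The median log2 fold change was 0.18 over members and 0.00 over all tested transcripts, and 157 members (78.5%) were above 0, against 47.2% of tested transcripts. On TPM with limma-trend these medians were 0.04 and -0.08, and 119 members were above 0, against 36.1% of tested transcripts.

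Treg transfer into Tcrb-/- mice, compared with Tcrb-/- mice without transfer, called 0 members at the stricter rule by edgeR, with 30 members (15%) at an unadjusted p under 0.05 against 6.97% of tested transcripts. DESeq2 called 0 higher and 4 lower, against 112 and 627 of all tested transcripts (1.355% together). The edgeR background was 0.00367% higher and 0.011% lower. At an adjusted p under 0.05, 0 members rose and 4 (2%) fell, against 0.0128% and 0.147% of tested transcripts. Of these 4, 3 lay under 741 TPM in Tcrb-/- + Treg. Rank 22 (859 nt) fell from 2950 ± 536 to 1713 ± 210 TPM (SD, n = 3), by 0.70 on the log2 scale (SE 0.10, edgeR adjusted p = 0.0341). The other 3 were ranks 123, 164 and 192, which fell by 1.83, 1.90 and 1.87 on the log2 scale (edgeR adjusted p = 0.0462, 0.0499 and 0.0215). Without replicate 2 of Tcrb-/- + Treg, 3 members were called lower at the stricter rule, against 61 of all tested transcripts. In that setting 6 members passed 0.05. Without replicate 1 of that group or replicate 3 of Tcrb-/-, 0 members passed 0.05, without replicate 1 of Tcrb-/- 8 did, and without any 1 of the other 8 libraries 1 did. TPM did not overlap for 30 members that were higher and 11 that were lower after transfer (15% and 5.5%), against 3.53% and 7.39% of tested transcripts, with the lower group under 741 TPM for 3 and 6 of them. The median log2 fold change was 0.18 over members and 0.00 over all, with 160 members (80%) above 0, against 49.9% of tested transcripts.

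Tcrb-/- + Treg against WT DMBA, skin with transferred Tregs in place of the full set of alpha-beta T cells, gave the most calls among members. At the stricter rule 6 members (3%) fell and 0 rose by edgeR, against 0.348% and 0.0477% of tested transcripts. Of the 6, 4 lay under 741 TPM in Tcrb-/- + Treg, and ranks 14 and 22 did not. The direction of the calls depended on the test. DESeq2 called 11 members higher and 7 lower, against 584 and 1415 of all tested transcripts (3.67% together). Limma-trend on TPM called 6 higher and 7 lower, against 89 and 588 of all tested transcripts. MGP_FVBNJ_T0046772.1 (1116 nt, rank 123) had 2099, 1788 and 1502 TPM in WT DMBA and 233, 487 and 208 in Tcrb-/- + Treg. UT WT had 1527, 1819 and 2032 TPM and Tcrb-/- 828, 1317 and 1384, so the group with transfer lay below all 9 other libraries. The log2 fold change was -2.28 (SE 0.30, edgeR adjusted p = 0.00528). MGP_FVBNJ_T0049468.1 (1297 nt, rank 164) had 1571, 1259 and 1088 TPM in WT DMBA and 174, 357 and 137 in Tcrb-/- + Treg, a log2 fold change of -2.27 (SE 0.31, edgeR adjusted p = 0.00652). Rank 192 went along with them, and the Pearson r between these 3 over the 12 libraries was 0.996 to 0.998 on the log2 scale. All 3 have estimates that are not whole numbers in every library.

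The other 3 were ranks 14, 22 and 178, named because they complete the count. Rank 22 had 5336, 4576 and 5002 TPM in WT DMBA and 1531, 1665 and 1943 in Tcrb-/- + Treg, with 3778, 3753 and 3599 in UT WT between them. Its log2 fold change was -1.28 (SE 0.11, edgeR adjusted p = 0.000984), and it passed in 18 of 20 refits. Rank 14 (746 nt) had 6933, 6037 and 6038 TPM in WT DMBA and 2267, 2408 and 2780 in Tcrb-/- + Treg, a log2 fold change of -1.09 (SE 0.11, edgeR adjusted p = 0.00246). For ranks 14 and 22 the order of these groups was the same: highest in WT DMBA, lowest in Tcrb-/- + Treg, with UT WT between. The place of Tcrb-/- differed: its mean was 4298 TPM against 4246 in UT WT for rank 14, and 2950 against 3710 for rank 22. Their r over the 12 libraries was 0.97. Rank 178 (445 nt) went from 1104 ± 153 to 355 ± 49.8 TPM (SD, n = 3), a log2 fold change of -1.41 (SE 0.20, edgeR adjusted p = 0.00715).

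The direction of all 6 held in 20 of 20 refits, which reuse the same libraries and are no separate support for it. The call did not hold in all refits. MGP_FVBNJ_T0046772.1 passed in 11, MGP_FVBNJ_T0049468.1 in 8 and rank 192 in 15. With only these groups in the fit, or without WT DMBA replicate 1, edgeR called 0 members. Without WT DMBA replicate 2 or Tcrb-/- + Treg replicate 1 it called 1, and without WT DMBA replicate 3 or either of UT WT replicates 2 and 3 it called 3. Without Tcrb-/- replicate 1, which is not in the comparison, it called 6 higher and 6 lower, against 123 and 275 of all tested transcripts.

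At an adjusted p under 0.05, 17 members (8.5%) rose and 9 (4.5%) fell in Tcrb-/- + Treg against WT DMBA by edgeR, against 1.17% and 1.67% of tested transcripts. The lower group lay under 741 TPM for 8 of the 17, among them ranks 70, 104, 117, 161 and 193 with WT DMBA means of 22.1 to 77.7 TPM, and for 6 of the 9, so these counts are in part built into the choice. Ranks 8 and 27 were among those that rose. Rank 8 (1104 nt) had 3190, 2733 and 2955 TPM in WT DMBA and 4961, 10716 and 10409 in Tcrb-/- + Treg, a log2 fold change of 1.82 (SE 0.39, edgeR adjusted p = 0.0331). In UT WT it had 6628, 5809 and 5583 TPM, and in Tcrb-/- 7030, 2586 and 3510, so that Tcrb-/- replicate 1 lay with the untreated libraries. Rank 27 (728 nt) followed it with an r of 0.99. Of these calls the higher ones depended most on single libraries. Without WT DMBA replicate 1 or 3, 1 member was called higher, and without WT DMBA replicate 2, 8 were. Without Tcrb-/- + Treg replicates 1 and 2 the numbers were 2 and 10, and without Tcrb-/- replicate 1 it was 74. In each case 7 to 9 were called lower. Counts over all tested transcripts are not given for these refits, so nothing about the members is read from them.

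Other members that rose in this comparison followed 2 orders of the groups. Rank 64 (806 nt) had 962, 1031 and 894 TPM in UT WT, 884, 901 and 798 in WT DMBA, 5290, 1834 and 1744 in Tcrb-/-, and 3678, 4843 and 2789 in Tcrb-/- + Treg, so that all 6 Tcrb-/- libraries lay above all 6 WT libraries. Its log2 fold change was 2.38 (SE 0.44, edgeR adjusted p = 0.0183). Ranks 23, 89, 92, 174 and 197 had the same gap between the 6 WT and the 6 Tcrb-/- libraries, with log2 fold changes of 0.81, 0.92, 1.14, 0.94 and 0.86. In Tcrb-/- against WT DMBA none of these 6 passed 0.05.

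Rank 36 (1551 nt) had instead 3580, 2886 and 2761 TPM in UT WT, 1561, 1358 and 1601 in WT DMBA, 3743, 1670 and 2190 in Tcrb-/-, and 3708, 3710 and 3836 in Tcrb-/- + Treg. WT DMBA was its lowest group, as for ranks 8 and 27, and all libraries with transfer lay above those of UT WT. For ranks 8 and 27, replicates 2 and 3 of Tcrb-/- + Treg lay above UT WT as well. Replicate 1 lay below all UT WT libraries for both, at 4961 and 2779 TPM. Its log2 fold change was 1.60 (SE 0.29, edgeR adjusted p = 0.0166). The steadiest transcript past the threshold was rank 155 (838 nt), with 860, 878 and 910 TPM in WT DMBA against 1055, 1145 and 989 in Tcrb-/- + Treg, a log2 fold change of 0.51 (SE 0.11, edgeR adjusted p = 0.031). Those that fell at 0.05 but missed the stricter rule were ranks 106, 125 and 184, by 0.61, 0.95 and 0.65 on the log2 scale.

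Most members had a log2 fold change above 0 in this comparison. So they did in Tcrb-/- against WT DMBA (78.5%) and in Tcrb-/- + Treg against Tcrb-/- (80%). Members share the same libraries and are not replicates. By library, the TPM share of the members overlapped between these groups (exact permutation p = 0.2). TPM did not overlap for 83 members that were higher and 18 that were lower (41.5% and 9%), against 5.02% and 17% of tested transcripts, with the lower group under 741 TPM for 12 and 7 of them. The median log2 fold change was 0.36 over members and 0.00 over all, with 170 members (85%) above 0, against 47.8% of tested transcripts. On TPM with limma-trend the medians were 0.12 and -0.10, and 142 members were above 0, against 35.3% of tested transcripts. The median of the members was thus smaller with limma-trend, a fit that differs from edgeR in more than scaling. In edgeR it was 0.33 with DESeq2 size factors and 0.40 with effective length offsets. In each of these settings it stayed above the median of all tested transcripts. Here and in the comparisons above, members were measured with more reads than other transcripts (13010 against 15.8). The part of this in the differences was not tested, and transcripts of like abundance were not compared.

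**Figure D4:**
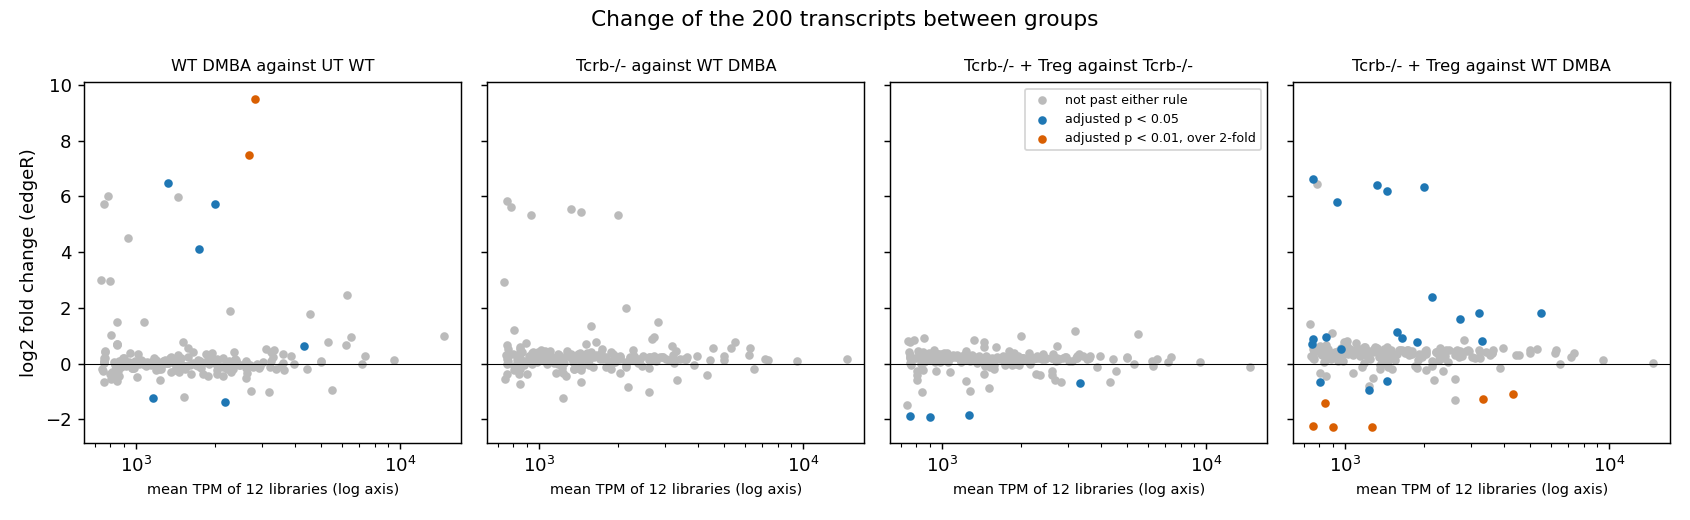
Log2 fold change by edgeR (y axis) against mean TPM over the 12 libraries (x axis, log) of each member in the 4 comparisons, with members past an adjusted p of 0.05 in blue and those past 0.01 with a fold above 2 in orange. There are 2 orange points in WT DMBA against UT WT, 6 in Tcrb-/- + Treg against WT DMBA and 0 in the other panels.

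A block of 6 members, ranks 70, 104, 117, 161, 188 and 193, is among the 9 whose TPM ranged over 100-fold or more. They were picked after their values were seen, and their levels are a description. Rank 70 (2185 nt) had 2.57, 1.07 and 1.15 TPM in UT WT, 75.7, 133 and 24.8 in WT DMBA, 5620, 1895 and 460 in Tcrb-/-, and 6287, 8060 and 1381 in Tcrb-/- + Treg. Rank 104 (1550 nt) had 1.91, 0.819 and 0.286 TPM in UT WT, 55.5, 103 and 16.5 in WT DMBA, 4807, 1187 and 344 in Tcrb-/-, and 3957, 5725 and 1162 in Tcrb-/- + Treg. For all 6, Tcrb-/- replicate 1 and Tcrb-/- + Treg replicates 1 and 2 were the highest 3 libraries, in an order that differed between members.

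In UT WT these transcripts were close to the limit of detection. Rank 104 had as few as 6 reads in a UT WT library, and ranks 188 and 193 as few as 1, so no ratio to UT WT is given. The Pearson r between any 2 of the 6 was 0.975 or higher over the 12 libraries, on the log2(TPM + 1) scale. All 6 ranked beyond 1000 in WT DMBA and within 143 in Tcrb-/-. Together with 5 steadier members whose r to rank 104 was also over 0.9, they took 0.524% to 0.549% of TPM in UT WT, 0.630% to 0.761% in WT DMBA, 0.962% to 3.36% in Tcrb-/- and 1.45% to 3.92% in Tcrb-/- + Treg. These libraries share the scaling of TPM, and an r over 12 points in 4 groups is in large part the difference between groups.

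The 6 are members through the Tcrb-/- groups alone, which fixes the direction of their differences from the WT groups, and no test is read for them. Replicates of Tcrb-/- lay far apart, from 460 to 5620 TPM for rank 70, and so did those of Tcrb-/- + Treg, from 1381 to 8060 TPM.

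The transcript of rank 6 and its companions took another course. Rank 6 had 1415, 1511 and 1084 TPM in UT WT, 3230, 10611 and 6307 in WT DMBA, 3625, 10708 and 13178 in Tcrb-/-, and 8917, 2057 and 12686 in Tcrb-/- + Treg. WT DMBA replicate 1, Tcrb-/- replicate 1 and Tcrb-/- + Treg replicate 2 were the low libraries of their groups. Its log2 fold change with DMBA in WT skin was 2.44 (SE 0.68, edgeR adjusted p = 0.152). The r to rank 6 was over 0.9 for 8 more members, ranks 7, 12, 33, 38, 55, 83, 175 and 186, which include both members called with DMBA in WT skin. The 9 together took 0.771% to 0.946% of TPM in UT WT, 1.60% to 4.32% in WT DMBA, 2.45% to 5.14% in Tcrb-/- and 1.13% to 5.11% in Tcrb-/- + Treg. Tcrb-/- + Treg replicate 2 was among the highest 3 libraries for the block of 6 and the lowest of its group for all 9 of these. Tcrb-/- replicate 1 was likewise high for the block, and the lowest of its group for 8 of the 9, though close to the others for rank 175. The exception was rank 7, with 7141, 6684 and 7625 TPM in Tcrb-/-.

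Some members ran against the block of 6. For ranks 60, 65, 102, 126, 135 and 184, the r to rank 104 was below -0.9. Rank 126 (886 nt) is an example, with 2325, 2324 and 2106 TPM in UT WT, 1546, 1169 and 1617 in WT DMBA, 499, 490 and 660 in Tcrb-/-, and 534, 431 and 1087 in Tcrb-/- + Treg. All UT WT libraries lay above all of WT DMBA, and those above all 6 Tcrb-/- libraries with or without Tregs. In WT DMBA against UT WT its log2 fold change was -0.59 (SE 0.28, edgeR adjusted p = 0.458).

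**Figure D5:**
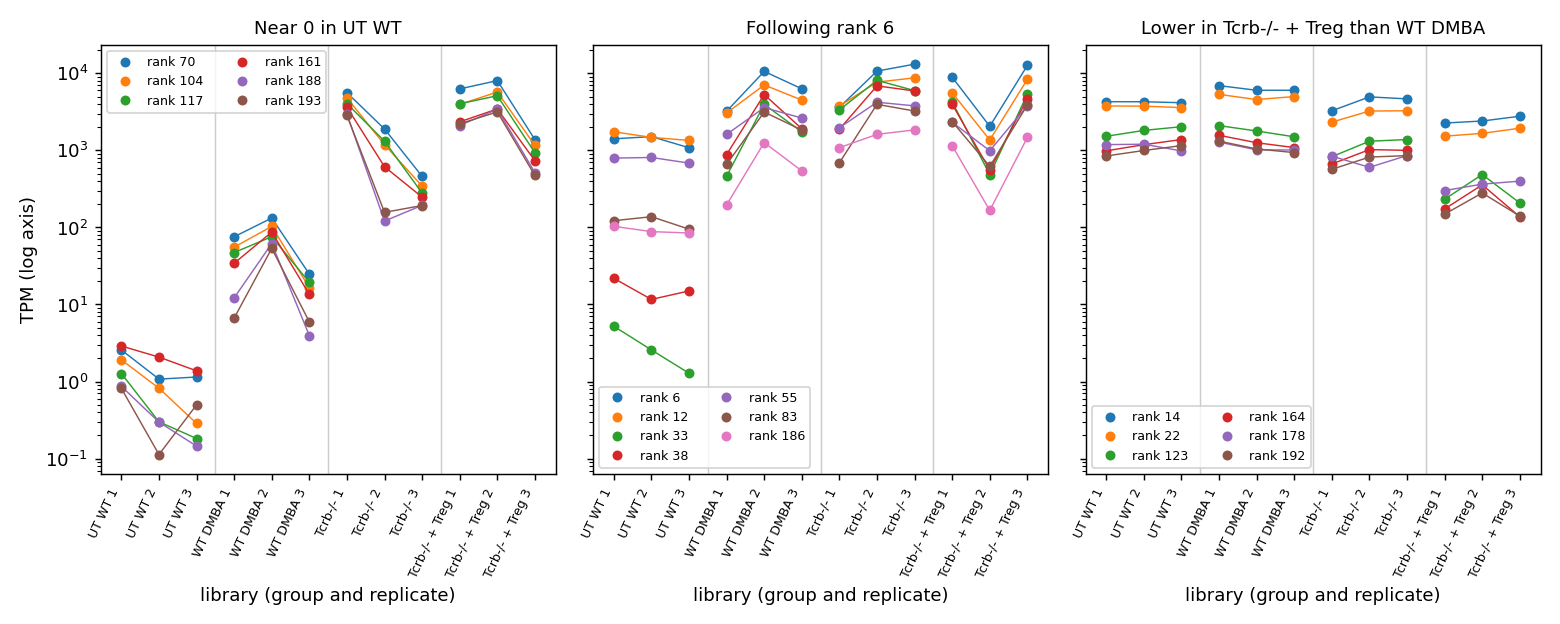
TPM (log axis) in each library of 3 sets of members, with 1 colour per member and lines joining the libraries of a group. The left panel shows the block of 6 that is near 0 in UT WT, the middle panel members that follow rank 6, with Tcrb-/- + Treg replicate 2 at 166 to 2057 TPM, and the right panel the 6 members lower in Tcrb-/- + Treg than in WT DMBA.

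Single libraries set the level of a few members. Rank 121 (1433 nt) had 26.7 TPM in Tcrb-/- + Treg replicate 3, from 539 reads, and 468 TPM in UT WT replicate 1, while the other 10 libraries held 1029 to 2036 TPM. Its estimates were fractional in 11 of 12 libraries. The transcript at the threshold, MGP_FVBNJ_T0032096.1, is a member through Tcrb-/-, the only group in which its mean was over 741 TPM. It had 54.5, 35.8 and 26.4 TPM in UT WT, and in Tcrb-/- + Treg 814, 115 and 1053.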

How the data were processed

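Whole-skin polyA RNA of 12 libraries in 4 groups of 3 was analysed, grouped by library title. The authors mapped reads with Salmon 1.5.2 to FVB/NJ cDNA and deposited 1 table per library, which gives for 85565 transcripts their length (nt), effective length, TPM and estimated count. Estimated counts are not normalized. Submitters' processing notes also name CASAVA 1.8.4, FastQC 0.12.1, MultiQC 1.11 and Picard. No columns of other samples were present.

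Estimated counts were rounded, and 54539 transcripts with at least 10 reads over the 12 libraries were tested in 1 fit with edgeR 4.0.16 (R 4.3.3, TMM, quasi-likelihood F test, Benjamini-Hochberg adjustment over all transcripts). The SE of a log2 fold change was taken from it and the square root of its F statistic. Calls needed an adjusted p under 0.01 and a fold above 2, and an adjusted p under 0.05 is given beside it. Shares were compared by exact two-sided permutation. Alternatives used DESeq2 1.42.0, limma 3.58.1 on log2(TPM + 1), other scalings, filters, member lists and omission of each library. Figures were drawn with matplotlib 3.10.9.

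Members and lists were chosen with earlier results of these data known. Named by rule were the 5 members of highest mean TPM, the transcripts on both sides of the threshold and, per comparison and direction, up to 2 called members of largest fold whose groups do not overlap. Members given by rank were chosen after their values were seen. Gene lists and cell type markers were not used, since the files pair no transcript with a gene, and neither sequences nor coordinates are given, because the reference used here is of strain C57BL/6J. Replicate pairs differed by a chi-square of 24.5 to 125 per transcript, so none were merged. The precision of a level is limited by the spread of 3 libraries rather than by depth.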

Additional observations from a re-analysis of the deposited data

How the results depend on the processing

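Over the alternatives run, the TPM share kept its direction in 50 of 52 values, the median rank change stayed within the spread of replicates in 28 of 32, the replicate spread in 18 of 24, and the count of called members stayed within 1.5 times in 56 of 88. Many of these 56 are counts that stayed at 0. With 1 library left out, the count stayed in 12 of 12 settings for Tcrb-/- against WT DMBA and 11 of 12 for Tcrb-/- + Treg against Tcrb-/-, both with 0 calls. Where members were called, it stayed in 1 of 12 for WT DMBA against UT WT and 5 of 12 for Tcrb-/- + Treg against WT DMBA. The 8 called members kept their direction in 160 of 160 refits and their call in 90. All these alternatives reuse the same libraries, and for members under 741 TPM in the lower group the direction is in part set by the choice. A kept direction is therefore no separate support. The precision is limited by 3 libraries a group, not by depth, except for members with a few reads in UT WT.

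For the TPM share, Tcrb-/- + Treg minus Tcrb-/- turned to -0.0955 points with the 20 highest transcripts and ran from -0.228 to 2.70 with 1 library left out. The other comparisons ran from 0.257 to 2.68 (WT DMBA against UT WT), 1.49 to 3.91 (Tcrb-/- against WT DMBA) and 2.46 to 5.39 (Tcrb-/- + Treg against WT DMBA). With ranks by share of reads, the median rank changes were 23.5, 19.5, 14 and 23.5 in the order of the report. Replicate spread on TMM-scaled CPM was 6.60% in UT WT, 11.4% in WT DMBA and 18.5% in Tcrb-/-. The TPM spread with 1 library left out ran from 3.17% to 5.16%, 3.84% to 6.25% and 7.64% to 11.8% in these groups.

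Members called in WT DMBA against UT WT numbered 17 with DESeq2 (14 higher, 3 lower), 1 (lower, with neither rise kept) with only these groups in the fit, 0 with members chosen by reads, 8 at an adjusted p under 0.05 by edgeR and 0 to 3 with 1 library left out. In Tcrb-/- against WT DMBA there were 10 with DESeq2. In Tcrb-/- + Treg against Tcrb-/- there were 4 with DESeq2, 4 at 0.05 by edgeR and 0 to 3 with 1 library left out. In Tcrb-/- + Treg against WT DMBA there were 18 with DESeq2 (11 higher, 7 lower), 13 with limma (6 higher, 7 lower), 0 with only these groups, 26 at 0.05 by edgeR and 0 to 12 with 1 library left out. Counts at 0.05 under these settings and the values without Tcrb-/- + Treg replicate 2 were added after seeing the data. Counts over all tested transcripts for DESeq2 and limma stand with each comparison above. The causes were not tested.

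Replicate numbers were not taken to pair the samples. In the 4 comparisons, deviations of same-numbered libraries from their group means had correlations of -0.102 to 0.0980 over 17515 transcripts. Such values cannot decide whether a number stands for a shared batch. With the number as a replicate block, the stricter rule called 0 members in WT DMBA against UT WT and 1 in Tcrb-/- + Treg against WT DMBA, and at 0.05 the 4 comparisons had 8, 0, 0 and 18.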
